A study of Mus musculus with 8 samples.

Results

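The semaphorins, plexins and neuropilins are a family of guidance ligands and receptors, and their mRNA levels were compared between control and dcKO_Nex-Cre mice in the cortex at P1. The members were taken by symbol, as all protein-coding genes starting with Sema, Plxna, Plxnb, Plxnc or Plxnd together with Nrp1 and Nrp2. Of the 48709 genes listed per library, 31 met this rule, namely 20 semaphorins, 9 plexins and 2 neuropilins. The dcKO_Nex-Cre mice carried floxed BAF155 and BAF170 (encoded by Smarcc1 and Smarcc2) and Nex-Cre, which recombines in postmitotic excitatory neurons, so that interneurons, glia, vessels and progenitors in the tissue keep both genes. The controls were BAF155fl/+, BAF170fl/+ and Cre negative, and both groups were kept on the C57BL6/J background. Each group had 4 libraries, each from total RNA of whole cortical tissue at P1.

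Semaphorins are secreted or membrane-bound proteins that steer axons, dendrites and migrating neurons. Plexins are their receptors and act on the cytoskeleton through small GTPases, while neuropilins are co-receptors that bind most class 3 semaphorins and hand the signal to A-type plexins. In the developing cortex these proteins are known for orienting apical dendrites, for radial migration and for the routing of callosal and corticofugal axons. Neuropilins also bind VEGF ligands, and the pathway therefore meets vessel growth.

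The libraries held 17958641 to 35191912 counts and 23596 to 24221 detected genes. Mitochondrial genes took 2.33% to 4.24% of counts in 6 libraries, and 6.87% in control replicate 2 and 6.15% in dcKO_Nex-Cre replicate 4, which were also the shallowest libraries of their groups. Lane tag 2 was shared by all controls and by replicates 1 and 2 of the dcKO_Nex-Cre group, whereas its replicates 3 and 4 had lane tag 8, which no control had. Smarcc2 was at 462 ± 25.8 CPM (counts scaled to a common, TMM-normalised library size; SD, n = 4) in the control, beside 263 ± 26.03 CPM in the mutant libraries (SD, n = 4; log2 fold change -0.81, adjusted p = 0.00267 from edgeR's quasi-likelihood test). Smarcc1 was at 148 ± 11.6 CPM and 102 ± 13.7 CPM (SD, n = 4 each), a log2 fold change of -0.53 (adjusted p = 0.0348 from edgeR). The call of Smarcc1 held in 2 of the 8 fits with 1 library omitted (without dcKO_Nex-Cre replicate 2 or 4), and the highest adjusted p of the other fits was 0.132, without control replicate 1, while within lane tag 2 it was 0.0752. The 7 excitatory neuron markers were detected in every library, and their summed CPM overlapped between the groups (788 to 879 in the control, 704 to 953 in the dcKO_Nex-Cre libraries). Of these 7, 2 were lower and 1 was higher at an unadjusted p under 0.05, with a median log2 fold change of -0.06, and Emx1 alone passed the adjusted threshold (-0.60, adjusted p = 0.0332 from edgeR).

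The class 3 semaphorin genes Sema3d, Sema3a, Sema3e and Sema3c lie close together on chromosome 5 of GRCm38, and Sema3d and Sema3e had the largest fold changes of the family. The interval from the start of Sema3d to the end of Sema3c runs over chr5:12383385-17730268, and the starts of Sema3d and Sema3e are 1.64 Mb apart. The 250 bases before a RefSeq start of each gene, on GRCm38.p6 and the plus strand, are shown because these 4 neighbours differed in their values. CG dinucleotides are in capitals.
Sema3d, chr5:12382916-12383165: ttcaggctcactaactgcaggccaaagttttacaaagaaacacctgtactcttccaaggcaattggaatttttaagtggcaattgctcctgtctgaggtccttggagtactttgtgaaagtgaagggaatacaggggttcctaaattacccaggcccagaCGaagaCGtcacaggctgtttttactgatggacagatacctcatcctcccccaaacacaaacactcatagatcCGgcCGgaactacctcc
Sema3e, chr5:14025026-14025275: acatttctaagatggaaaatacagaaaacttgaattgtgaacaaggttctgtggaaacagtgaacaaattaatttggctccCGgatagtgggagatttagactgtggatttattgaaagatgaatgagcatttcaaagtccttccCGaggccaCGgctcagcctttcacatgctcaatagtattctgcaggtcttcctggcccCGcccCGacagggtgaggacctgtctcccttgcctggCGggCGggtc
Sema3a, chr5:13396534-13396783: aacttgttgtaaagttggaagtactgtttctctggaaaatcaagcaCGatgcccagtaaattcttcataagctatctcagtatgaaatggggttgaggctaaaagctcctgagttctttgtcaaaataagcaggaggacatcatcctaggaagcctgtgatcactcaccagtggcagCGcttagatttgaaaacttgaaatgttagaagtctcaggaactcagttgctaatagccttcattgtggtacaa
Sema3c, chr5:17574566-17574815: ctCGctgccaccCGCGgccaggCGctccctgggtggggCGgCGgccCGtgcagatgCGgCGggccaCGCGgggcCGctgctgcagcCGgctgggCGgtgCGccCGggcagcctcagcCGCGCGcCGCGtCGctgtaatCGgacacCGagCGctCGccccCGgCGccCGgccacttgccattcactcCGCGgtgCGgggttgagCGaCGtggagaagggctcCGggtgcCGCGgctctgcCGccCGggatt

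The promoter windows of Sema3d and Sema3e held 4 and 7 CG dinucleotides, close to the median of 6 over 32851 promoter windows of the same length. The Sema3c window held 39, a number that 1.56% of the windows reach, and the Sema3a window held 2. The windows of Sema3a and Sema3c lie inside the genes as GENCODE annotates them, since both genes begin upstream there, so these windows are not sequence before the gene in that annotation. A GC box, searched as GGGCGG on both strands, was found in the windows of Sema3e and Sema3c and in 32.7% of all windows. The TCF/LEF core CTTTGA, on either strand, was found in the Sema3e window alone of these 4 and in 13.8% of all windows. TATAAA, present in 12.4% of windows, was in none of them. The GC box and TCF/LEF matches in the Sema3e window do not overlap, and all matches describe the sequence only. Promoter windows were matched for 26 of the 31 members.

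Across the family, no member passed an adjusted p of 0.05 in either direction, out of 31 tested. Over all 16287 genes tested, 0.51% were lower and 0.375% were higher at this threshold in the dcKO_Nex-Cre cortex (edgeR, Benjamini-Hochberg adjustment over all genes). At an unadjusted p under 0.05, 3 members were lower and 2 were higher, beside 7.05% and 6.59% of all genes. Every dcKO_Nex-Cre library lay above every control library for 1 member, Sema3d, and below for 0 members, while 3.99% of all genes did so upward and 4.01% downward. The median log2 fold change of the members was -0.01, that of all genes was 0.00, and 15 of the 31 were above 0. The 95% interval of the fold change lay within 1.5-fold in both directions for 26 members, and the exceptions were Sema3d, Sema3e, Sema3b, Nrp2 and Plxnb3. The counts of members called depended on the method of the fit and on dcKO_Nex-Cre replicate 4, whose values are described further down. Without that library the shares of all genes called rose as well, to 3.98% higher and 3.74% lower.

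**Figure D1:**
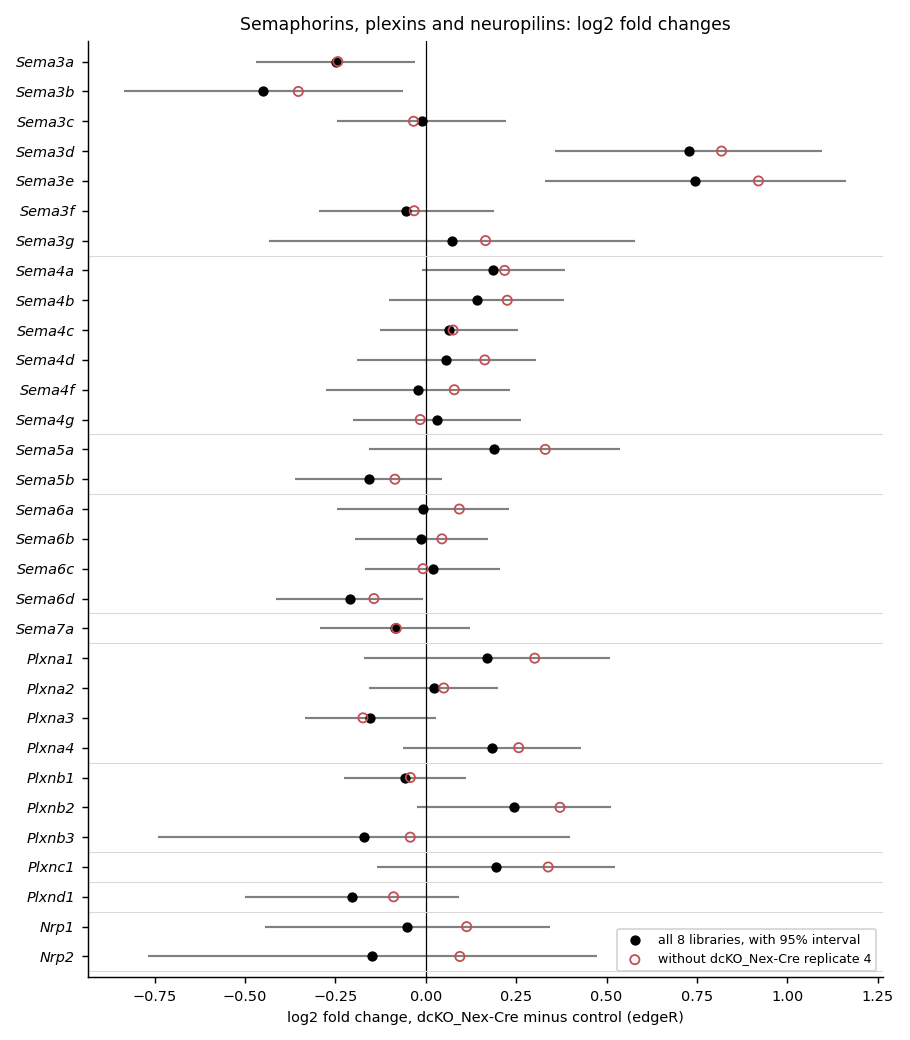
Log2 fold change (dcKO_Nex-Cre minus control, x axis) of the 31 members, grouped by class, with the 95% interval from edgeR over 8 libraries (black points, n = 4 per group) and the value without dcKO_Nex-Cre replicate 4 (red circles). Sema3d and Sema3e lie furthest to the right, at 0.73 and 0.75, and most red circles lie to the right of their black points.

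Among the class 3 ligands, which are secreted, Sema3d and Sema3e were higher and Sema3a and Sema3b were lower at the unadjusted threshold. Sema3d acts on axons, vessels and neural crest derivatives. It was at 4.72, 3.996, 4.88 and 3.70 CPM in control replicates 1 to 4 and at 6.72, 7.09, 9.08 and 5.73 CPM in dcKO_Nex-Cre replicates 1 to 4. The groups did not overlap, and dcKO_Nex-Cre replicate 3 was the highest. The log2 fold change was 0.73 (standard error 0.17, 95% interval 0.36 to 1.096), or 1.65-fold, with an unadjusted p = 0.00118 and an adjusted p = 0.0795 from edgeR. The two-sided exact permutation test of CPM gave p = 0.0286, the smallest that 4 libraries against 4 allow. These values rest on 73 to 232 counts per library.

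Sema3e binds Plxnd1 without a neuropilin and is known from vascular patterning and from axon tracts of the forebrain. Its CPM were 8.98, 8.21, 9.01 and 8.50 in the control libraries and 18.2, 14.1, 16.9 and 8.81 in the dcKO_Nex-Cre libraries. Replicates 1 to 3 of the dcKO_Nex-Cre group were all above the control range, and replicate 4 lay inside it. The log2 fold change was 0.75 (standard error 0.19, 95% interval 0.33 to 1.16), or 1.68-fold, with an unadjusted p = 0.00231 and an adjusted p = 0.117 from edgeR. The exact permutation test, two-sided, gave p = 0.0857. In bulk tissue, more cells of a type and more RNA per cell cannot be told apart for this or any other gene.

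Both genes passed the adjusted threshold in some of the other fits of the same counts. With limma-voom, DESeq2 size factors, at least 10 counts in every library or the replicate number as a block, 0 members were called higher. The shares of all genes called higher in these fits were 0.307%, 0.393%, 0.42% and 0.129%, in that order. Without dcKO_Nex-Cre replicate 4 the log2 fold changes were 0.82 (adjusted p = 0.0177 from edgeR) for Sema3d and 0.92 (adjusted p = 0.00234) for Sema3e. With DESeq2's Wald test the adjusted p were 0.00551 and 0.010 (1.31% of genes tested were called higher), and with edgeR without a filter on low counts they were 0.0329 and 0.0424 (0.362% called higher). A fit with 1 surrogate variable gave adjusted p of 0.034 and 0.0231 (1.45% higher, 2.66% lower), and it also called Sema6d lower. In each of the other 7 fits that leave out 1 library, neither gene passed the adjusted threshold, and the adjusted p reached 0.248 for Sema3d and 0.317 for Sema3e, while the unadjusted p stayed under 0.05 in all 8 of these fits for both genes.

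Sema3b, which acts on commissural axons, was at 4.76, 3.78, 4.97 and 4.23 CPM in the control libraries and at 3.22, 4.10, 3.09 and 2.53 CPM in the dcKO_Nex-Cre libraries. The groups overlapped through dcKO_Nex-Cre replicate 2, which lay above control replicate 2. The log2 fold change was -0.45 (standard error 0.18, unadjusted p = 0.0265, adjusted p = 0.294 from edgeR; exact permutation p = 0.0571), on 45 to 119 counts per library. Sema3a, the prototype repellent of cortical axons and a cue for apical dendrites and for radially migrating neurons, was at 56.1, 43.0, 50.9 and 58.8 CPM in the control libraries. In the dcKO_Nex-Cre libraries it was at 46.6, 40.5, 44.8 and 43.8 CPM. Control replicate 2 lay among the dcKO_Nex-Cre values and the other controls lay above them. The log2 fold change of Sema3a was -0.25 (standard error 0.10, unadjusted p = 0.0299, adjusted p = 0.307 from edgeR; exact permutation p = 0.114). Each of these unadjusted edgeR calls held in 4 of the 8 fits that leave out 1 library. That of Sema3b was lost without control replicate 1 or 3 or dcKO_Nex-Cre replicate 3 or 4 (with p values up to 0.0761), and that of Sema3a without control replicate 1 or 4 or dcKO_Nex-Cre replicate 2 or 3 (with p values up to 0.105).

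The other class 3 members differed by less than the spread between libraries. Sema3c, which guides callosal axons, was at 170.0 ± 23.4 and 169 ± 14.8 CPM (SD, n = 4 each), a log2 fold change of -0.01 with a 95% interval of -0.25 to 0.22. Sema3f, the main ligand of Nrp2, had a log2 fold change of -0.05 and a mean of 39.0 CPM in the control. Sema3g, known from the endothelium, was at 1.503 CPM in the control with a log2 fold change of 0.07. Of the 4 neighbours on chromosome 5, 2 were thus higher and 1 was lower at the unadjusted threshold, and Sema3c did not pass it. Between them, 6 other genes were tested, of which 1 had an unadjusted p under 0.05 and 0 had an adjusted p under 0.05 from edgeR. That gene, Gm3510, was higher, with a log2 fold change of 0.54 (adjusted p = 0.159 from edgeR) and groups that did not overlap. Its adjusted p was 0.0418 with DESeq2's Wald test and, from edgeR, 0.0362 with 1 surrogate variable and 0.0841 without dcKO_Nex-Cre replicate 4.

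**Figure D2:**
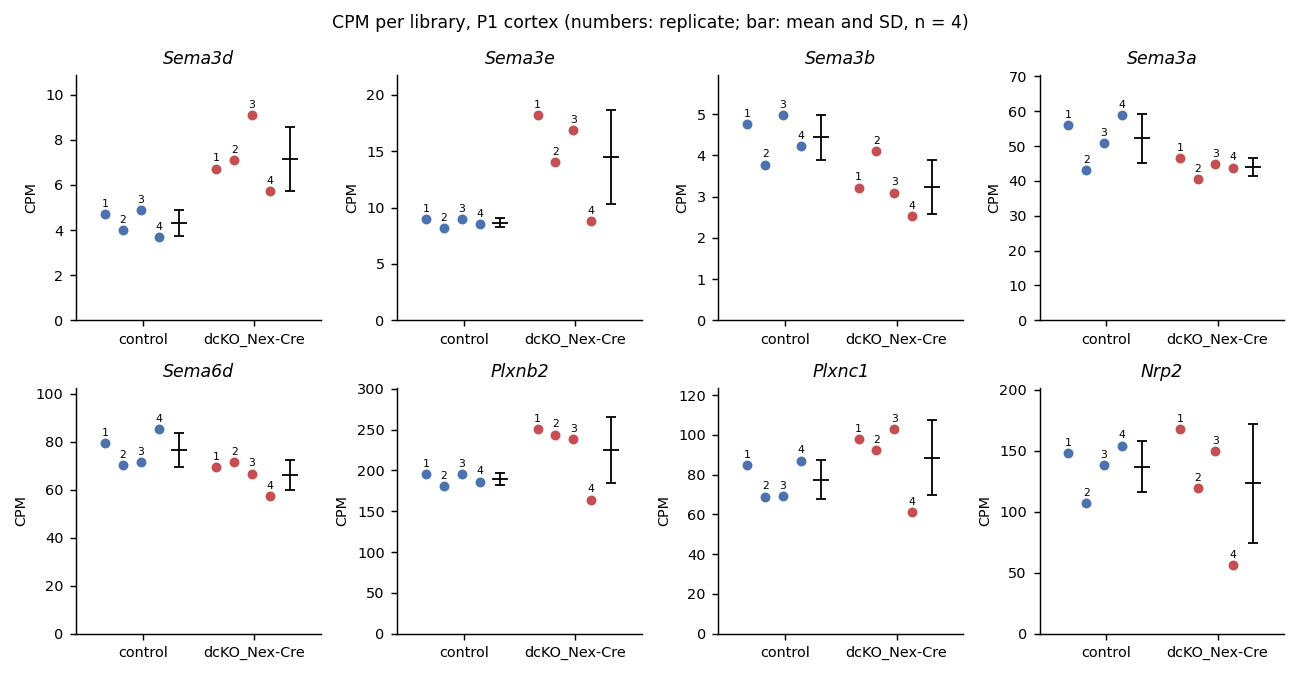
CPM per library (y axis, from 0) for 8 members in the control (blue) and dcKO_Nex-Cre (red) cortex, with replicate numbers and the mean and SD beside each group (n = 4). Sema3d separates the groups, and for Sema3e, Plxnb2, Plxnc1 and Nrp2 replicate 4 of the dcKO_Nex-Cre group lies apart from the other 3 of its group.

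The class 4 semaphorins are membrane-bound and act largely through B-type plexins. Of the 6, 5 had a log2 fold change above 0, and the values ran from -0.02 for Sema4f to 0.19 for Sema4a, with none at an unadjusted p under 0.05. Sema4d, the ligand of Plxnb1, was at 31.7 ± 1.64 CPM in the control and at 32.9 ± 5.23 CPM in the dcKO_Nex-Cre cortex (SD, n = 4 each), with a log2 fold change of 0.06. Sema4c and Sema4g, both ligands of Plxnb2, had 0.06 and 0.03, and Sema4b had 0.14. All 6 intervals lay within 0.5 on the log2 scale.

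The class 5 semaphorins carry thrombospondin repeats and bind A-type plexins. Sema5a had a log2 fold change of 0.19 and Sema5b of -0.16, with unadjusted p of 0.255 and 0.116 from edgeR. Among the transmembrane class 6 ligands of A-type plexins, Sema6d was lower at the unadjusted threshold. It was at 79.5, 70.3, 71.4 and 85.3 CPM in the control libraries and at 69.4, 71.4, 66.7 and 57.3 CPM in the dcKO_Nex-Cre libraries. The groups overlapped, with dcKO_Nex-Cre replicate 2 among the lower controls and replicate 4 the lowest of all. The log2 fold change of Sema6d was -0.21 (standard error 0.09, unadjusted p = 0.0437, adjusted p = 0.348 from edgeR; exact permutation p = 0.0571). The unadjusted edgeR call was lost without control replicate 1 or 4 or dcKO_Nex-Cre replicate 3 or 4, at which the highest p was 0.143. Sema6a, Sema6b and Sema6c, the others of the class, lay between -0.01 and 0.02.
Sema7a, which is anchored to the membrane by a lipid and signals through Plxnc1 and integrins, had a log2 fold change of -0.08 and the highest level per length of the family, given next.

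Levels between genes were compared as CPM per kb of exon, the union of a gene's annotated exons. In the control, Sema7a was highest at 38.8 ± 4.55 CPM per kb (SD, n = 4), followed by Plxna3 at 28.0, Plxnb2 at 24.6, Sema3c at 23.8 and Sema4g at 23.3 CPM per kb. At the other end were Sema3e and Sema3b, both at 0.93 CPM per kb, Sema3d at 0.50, Sema3g at 0.33 and Plxnb3 at 0.30 CPM per kb. The ligand pair with the largest fold changes thus ranked 27 and 29 of 31 by level. The order is coarse, because the control ranges of neighbours overlapped for 21 of the 30 neighbouring pairs. Sema7a was apart from Plxna3, Plxna3 from Plxnb2, Sema6c from Sema6b, Sema6a from Sema5b, Sema4b from Sema4d, Sema3a from Sema5a, Sema5a from Sema3e, Sema3b from Sema3d, and Sema3d from Sema3g. The scale also depends on the length used, since with the length of the longest transcript Sema4g ranked first at 44.4 CPM per kb and Nrp1 moved from rank 15 to rank 6.

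**Figure D3:**
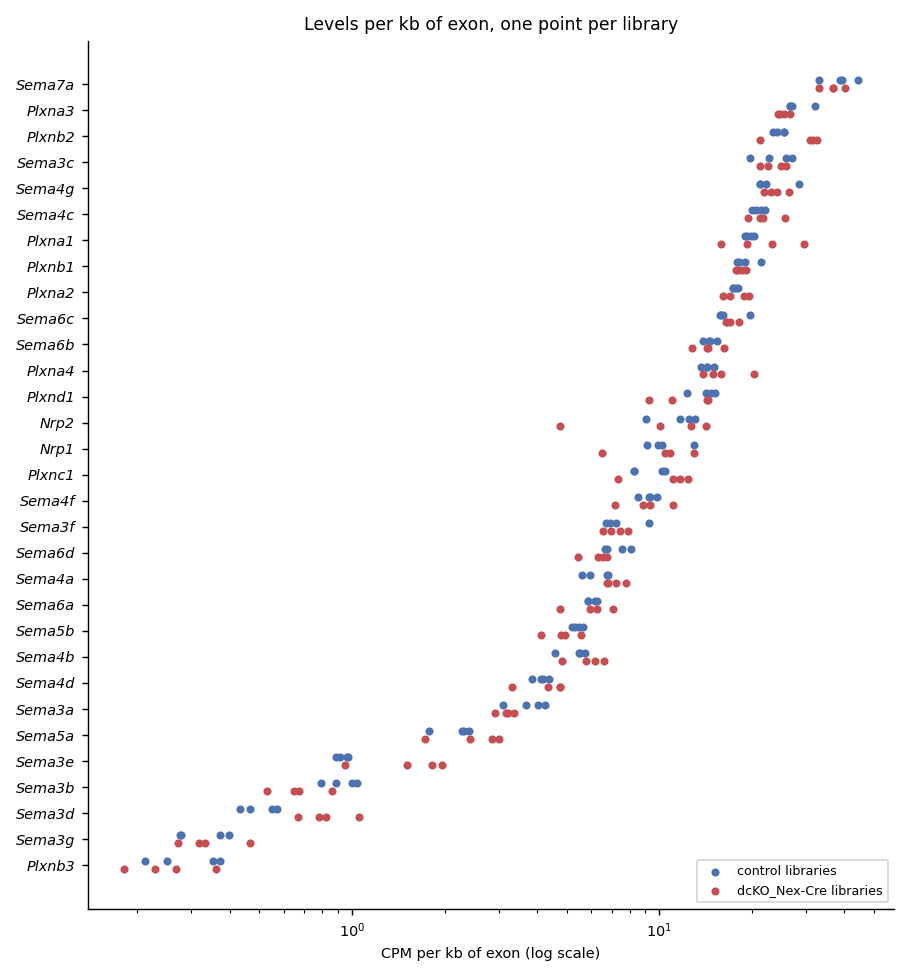
Level of each member in CPM per kb of exon (x axis, log scale), with 1 point per library, ordered by the control mean. Sema7a lies at the top near 38.8 and Plxnb3 at the bottom near 0.30 CPM per kb, and dcKO_Nex-Cre replicate 4 gives the isolated low points of Nrp2 and Nrp1.

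Of the 9 plexins, 5 had a log2 fold change above 0 and none had an unadjusted p under 0.05 over all libraries. The A-type plexins, which pair with neuropilins or bind class 5 and 6 ligands directly, were at 0.17 (Plxna1), 0.02 (Plxna2), -0.15 (Plxna3) and 0.18 (Plxna4) on the log2 scale. Plxna3 was at 209 to 252 CPM in the control and 191 to 209 CPM in the dcKO_Nex-Cre libraries. Plxnb2, a class 4 receptor found in proliferating and migrating neural cells, was at 196, 181, 196 and 186 CPM in the control libraries and at 251, 244, 239 and 164 CPM in the dcKO_Nex-Cre libraries. Replicates 1 to 3 were above all controls and replicate 4 was below all of them. The fitted log2 difference was 0.24 with a standard error of 0.12 (edgeR, adjusted p = 0.399), and without replicate 4 it was 0.37 (adjusted p = 0.0141). Plxnb1 and Plxnb3, the other B-type receptors, had -0.06 and -0.17, the latter on 21 to 61 counts per library.

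Plxnc1, the receptor of Sema7a, was at 84.8, 69.02, 69.1 and 87.1 CPM in the control libraries and at 97.7, 92.2, 103 and 61.3 CPM in the dcKO_Nex-Cre libraries. The pattern was that of Plxnb2, with replicates 1 to 3 above the controls and replicate 4 below them. Its log2 fold change was 0.19 (adjusted p = 0.577 from edgeR) and without replicate 4 it was 0.34 (adjusted p = 0.0471). Plxnd1, the receptor of Sema3e, was at 103 ± 9.12 CPM in the control and 89.2 ± 18.4 CPM in the dcKO_Nex-Cre cortex (SD, n = 4 each). Its log2 fold change was -0.20 with a 95% interval of -0.50 to 0.09 (edgeR, unadjusted p = 0.156), on the opposite side of 0 from that of its ligand. Without replicate 4 it was -0.09, and within lane tag 2 it was 0.02, so its sign depended on the libraries used.

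Neither neuropilin passed a threshold over all libraries, and Nrp2 varied widely within the dcKO_Nex-Cre group (SD 48.9 CPM around a mean of 123 CPM, n = 4). Nrp2, the co-receptor of Sema3f, was at 148, 107, 138 and 154 CPM in the control libraries and at 168, 119, 149.5 and 56.2 CPM in the dcKO_Nex-Cre libraries. Only dcKO_Nex-Cre replicate 4 lay outside the range of the rest on the low side, at 38.6% of the mean of the other libraries of its group. The log2 fold change of Nrp2 was -0.15 (95% interval -0.77 to 0.47, adjusted p = 0.838 from edgeR), and with 1 surrogate variable it was -0.49 (adjusted p = 0.0542 from edgeR, unadjusted p = 0.00238). Nrp1, the co-receptor of Sema3a, was at 99.7, 96.9, 127 and 89.4 CPM in the control and at 127, 102, 106 and 63.7 CPM in the dcKO_Nex-Cre libraries, again with replicate 4 the lowest. Its log2 fold change was -0.05 (95% interval -0.45 to 0.34). Without replicate 4 both lay above 0, at 0.09 for Nrp2 and 0.11 for Nrp1, and neither passed the adjusted threshold.

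The same library was low for much of the family. Replicate 4 of the dcKO_Nex-Cre group was the lowest of the 8 libraries for 16 of the 31 members (51.6%), beside 19.6% of all genes tested, and the lowest of its group for 21 members (67.7%), beside 37.8% of all genes. The median log2 ratio of the members to their control mean was -0.21 in this library and 0.15, 0.01 and -0.02 in dcKO_Nex-Cre replicates 1 to 3. The members furthest down there were Nrp2, Sema3e, Nrp1 and Plxnc1, at 38.6%, 53.8%, 57.2% and 62.7% of the mean of the other 3 dcKO_Nex-Cre libraries. Sema4g, Sema6c, Sema3c and Plxna3 were not low there, at 107% to 115% of that mean. Low values in this library were not particular to the family. The summed CPM of the receptor partners, a list taken up further down, was 1765 there and 1980 to 2373 in the other libraries. That of the plexin effectors was 9781 there and 10639 to 13455 in the others. The VEGF ligand sum was the highest of its group there, at 97.5 CPM. The summed CPM of the 6 deep-layer neuron markers was also lowest in this library, at 344, beside 415 to 595 in the other dcKO_Nex-Cre libraries and 448 to 482 in the controls. This was not the only such list. The library was also the lowest of its group for the upper-layer neuron, intermediate progenitor, oligodendrocyte precursor, microglial, endothelial, choroid plexus and striatal marker sums. For the interneuron, Cajal-Retzius and erythroid sums it was the highest of its group. The part of these cells, of depth and of the mitochondrial share in the low values was not tested.

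Leaving this library out raised the number of members called. There were then 4 members with an adjusted p under 0.05 that were higher (Sema3d, Sema3e, Plxnb2 and Plxnc1) and 0 that were lower, while 3.98% of all genes were called higher and 3.74% lower. At the unadjusted threshold 9 members were higher and 1 was lower, beside 14.3% and 13.9% of all genes. The 9 were Sema3d, Sema3e, Plxnb2 and Plxnc1 with Plxna1, Plxna4, Sema4a, Sema4b and Sema5a, and the 1 was Sema3a. The median log2 fold change of the members was then 0.08. This rise follows in part from the omission itself, because the omitted library was the lowest of its group for 21 members. The counts without it are therefore no separate support for higher levels in the family. The lane tag 2 fit, given next, leaves it out too. Within lane tag 2, with 4 control and 2 dcKO_Nex-Cre libraries, Sema3e (0.90, adjusted p = 0.0192 from edgeR) and Plxnb2 (0.39, adjusted p = 0.047) were called higher, beside 0.834% of all genes, and 7 members were higher at the unadjusted threshold, beside 11.7% of all genes. Sema3d had 0.67 there (adjusted p = 0.073).

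The 2 libraries with the highest mitochondrial share of their group were control replicate 2 and dcKO_Nex-Cre replicate 4. They resembled each other over all genes, and not only in where they placed the members. Control replicate 2 was the highest and dcKO_Nex-Cre replicate 4 the lowest of its group for 7.02% of all genes, and the reverse held for 5.77%. Both were the lowest of their group for 12 members (38.7%), beside 19.8% of all genes, and both were the highest for 3 members (9.68%), beside 21.4% of all genes. The 12 were Nrp2, Plxna4, Plxnb2, Plxnc1, Sema3b, Sema3e, Sema4b, Sema4f, Sema5a, Sema5b, Sema6a and Sema6d, and the 3 were Plxna3, Sema4g and Sema6c. With both libraries left out, a fit chosen after the data were seen, the 4 members that were higher without replicate 4 were again called, beside 5.49% of all genes, and Sema3a was called lower (-0.32, adjusted p = 0.0196 from edgeR), beside 5.5% of all genes.

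**Figure D4:**
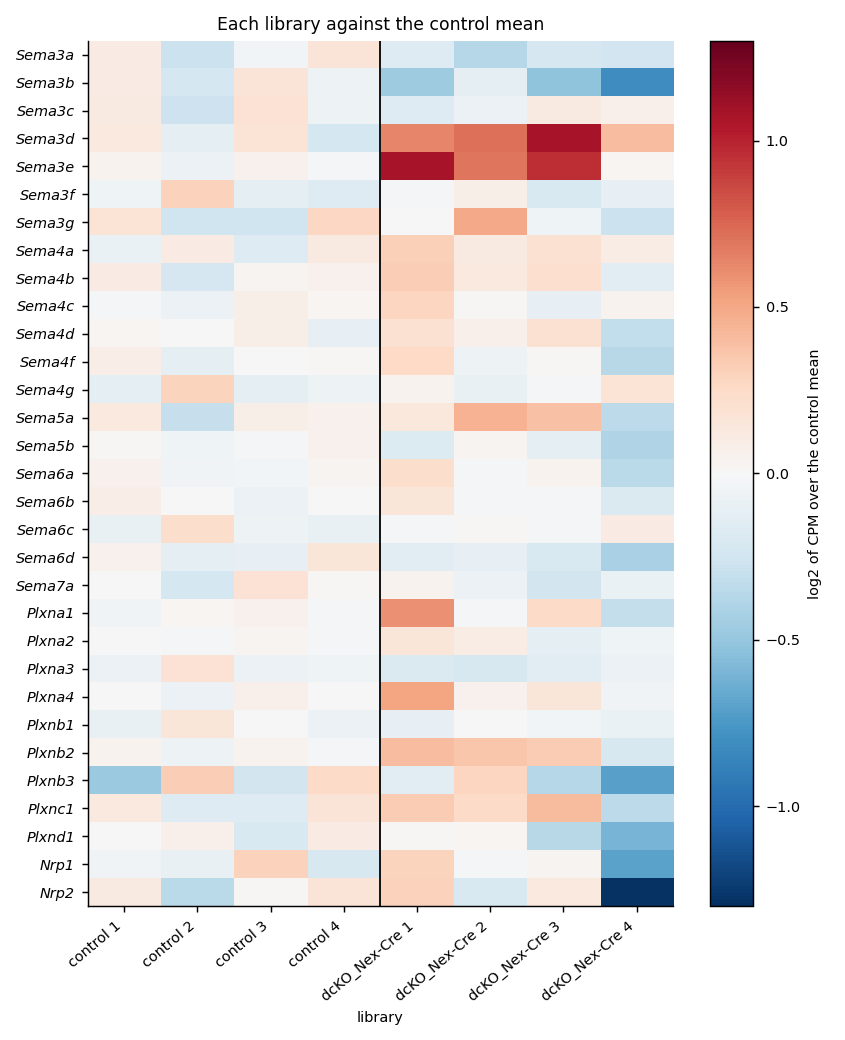
Log2 of the CPM of each library over the control mean of the same gene (colour), for the 31 members (rows) in 4 control and 4 dcKO_Nex-Cre libraries (columns). Sema3d and Sema3e stand out above the control mean in dcKO_Nex-Cre replicates 1 to 3, and replicate 4 is below the control mean for most members, with Nrp2 the lowest.

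Markers of other cells in the tissue were summed per library. The oligodendrocyte precursor markers had 4 of 5 genes higher at an unadjusted p under 0.05, beside 6.59% of all genes. Of these, 1 gene, Cspg4, passed the adjusted threshold (log2 fold change 0.56, adjusted p = 0.0355 from edgeR), beside 0.375% of all genes. Their summed CPM was 173 to 252 in the control and 252 to 308 in the dcKO_Nex-Cre cortex. Of 7 microglial markers, 2 were higher and 1 was lower at the unadjusted threshold, with a median log2 fold change of 0.05, overlapping sums (90.8 to 106 CPM in the control, 92.1 to 122 CPM in the dcKO_Nex-Cre cortex) and C1qb past the adjusted threshold (0.46, adjusted p = 0.0422 from edgeR). Of 6 striatal markers, 1 was higher at either threshold, Ppp1r1b (0.96, adjusted p = 0.040 from edgeR), and the sums overlapped, at 72.4 to 91.2 CPM in the control and 73.2 to 193 CPM in the dcKO_Nex-Cre cortex, where replicate 2 was the highest. Of 8 radial glia and astrocyte markers, 2 were lower and 1 was higher at the unadjusted threshold, and their sum was 2401 to 2832 CPM in the control and 1967 to 2485 CPM in the dcKO_Nex-Cre cortex, with replicates 1, 2 and 4 below every control. The summed endothelial markers were at 70.9 to 106 CPM in the control and 97.3 to 120 CPM in the dcKO_Nex-Cre cortex, the meningeal fibroblast markers at 15.6 to 31.3 and 10.6 to 61.5 CPM, and the choroid plexus markers at 22.3 to 1335 and 3.99 to 557 CPM. Their part in the levels of Sema3d, Sema3e and the other members was not tested.

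Beyond the family, 4 lists of pathway partners were examined. Among the 5 VEGF ligands, the other ligands of neuropilins, Vegfd fell and passed the adjusted threshold. Vegfd, a ligand known from lymphatic growth, was at 2.56, 1.86, 2.003 and 2.51 CPM in the control libraries and at 1.07, 0.57, 0.62 and 0.51 CPM in the dcKO_Nex-Cre libraries, on 9 to 57 counts per library. The groups did not overlap. The fitted log2 difference was -1.64 with a standard error of 0.26 (edgeR, adjusted p = 0.0196), and the fits that leave out 1 library gave -1.96 to -1.53. The adjusted call was lost without control replicate 1, 3 or 4 (adjusted p = 0.0954, 0.0593 and 0.0963) or dcKO_Nex-Cre replicate 2 or 3 (adjusted p = 0.0619 and 0.073), and within lane tag 2 the adjusted p from edgeR was 0.0535 at a log2 fold change of -1.41.

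The other VEGF ligands had unadjusted p under 0.05 and did not pass the adjusted threshold. Vegfa, the main angiogenic ligand, was at 53.6, 61.1, 47.1 and 53.3 CPM in the control libraries and at 36.5, 42.9, 43.4 and 51.0 CPM in the dcKO_Nex-Cre libraries. The groups overlapped through dcKO_Nex-Cre replicate 4, and the log2 fold change was -0.31 (adjusted p = 0.253 from edgeR), or -0.39 without that library (adjusted p = 0.0385). Pgf and Vegfb, ligands of Flt1, were lower in every dcKO_Nex-Cre library than in every control library, with log2 fold changes of -0.40 and -0.15 (adjusted p = 0.259 and 0.357 from edgeR). Vegfc, the other lymphatic ligand, was at 4.11 to 4.88 CPM in the control and at 4.75 to 6.29 CPM in the dcKO_Nex-Cre cortex, a log2 fold change of 0.36 (adjusted p = 0.298 from edgeR). In this list 4 of 5 genes were thus lower and 1 higher at the unadjusted threshold, with a median log2 fold change of -0.31. Of all genes, 7.05% were lower and 6.59% higher, with a median of 0.00. The gene lists, this one included, were chosen with earlier results of these data known, so these shares are no independent test. The unadjusted call of Vegfb was lost with DESeq2's Wald test, without a filter, with the replicate block and within lane tag 2. That of Vegfc was lost with the block and with both high mitochondrial libraries left out. Those of Vegfa, Vegfd and Pgf held in all of these fits.

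**Figure D5:**
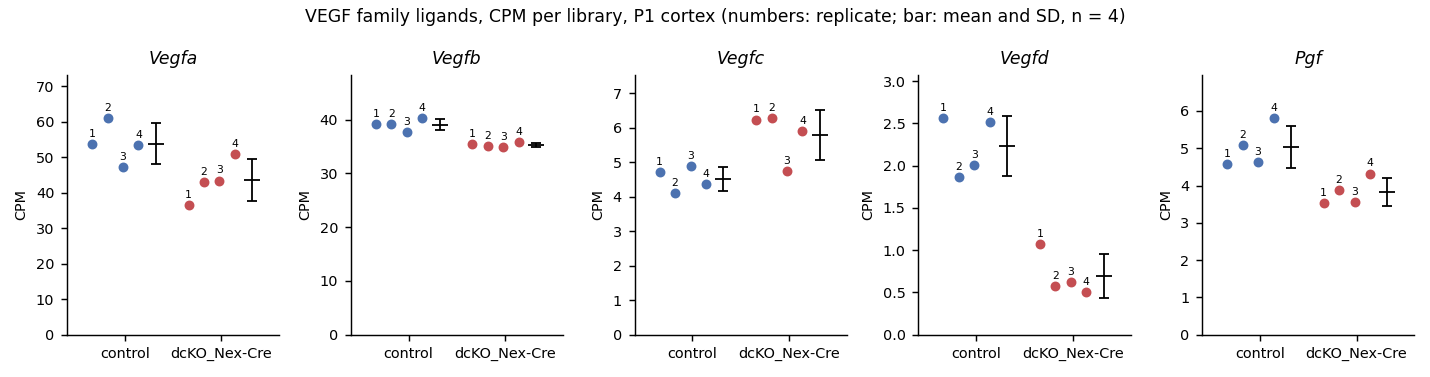
CPM per library (y axis, from 0) of the 5 VEGF ligands in the control (blue) and dcKO_Nex-Cre (red) cortex, with replicate numbers and the mean and SD beside each group (n = 4). Vegfd, Vegfb and Pgf separate the groups, with Vegfd at 1.86 to 2.56 CPM in the control and 0.51 to 1.07 CPM in the dcKO_Nex-Cre libraries.

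The receptor partners of the family, such as the L1 family adhesion molecules, VEGF receptors and integrins, had 14 of 15 genes tested, 0 with an adjusted and 0 with an unadjusted p under 0.05 from edgeR, and a median log2 fold change of 0.00. The smallest p was that of Flt1, a VEGF receptor with a log2 fold change of 0.32 (exact permutation p = 0.171, edgeR p = 0.0879). Without dcKO_Nex-Cre replicate 4 Flt1 was at 0.47 (adjusted p = 0.0404 from edgeR), in a fit that called 3.98% of all genes higher. It was also called with both high mitochondrial libraries left out (adjusted p = 0.0221 from edgeR). Within lane tag 2 and with 1 surrogate variable it was not called (adjusted p = 0.0798 and 0.334 from edgeR). Of 36 intracellular effectors of plexins, 0 passed the adjusted threshold, 2 were lower and 2 higher at the unadjusted one, which is no more than the 7.05% and 6.59% of all genes, and the median was 0.04. These 4 genes are named by the rule for this list and are not set apart by their number. Limk1, which phosphorylates cofilin, had a log2 fold change of -0.22 and Pak3, a kinase downstream of Rac, had -0.24, with adjusted p of 0.198 and 0.298 from edgeR. Dpysl4, of the collapsin response mediator proteins, had 0.28, and Cdk5r1, the activator of Cdk5, had 0.26, with adjusted p of 0.234 and 0.287 from edgeR. Of 5 proteases that process semaphorins and their receptors, Adam17, a sheddase, had a log2 fold change of 0.25 (adjusted p = 0.216 from edgeR), with 26.7 to 27.7 CPM in the control and 28.6 to 35.7 CPM in the dcKO_Nex-Cre libraries. It was higher at the unadjusted threshold, and 0 of the 5 passed the adjusted one. Without dcKO_Nex-Cre replicate 4 Adam17 was at 0.31 (adjusted p = 0.030 from edgeR) and Cdk5r1 at 0.34 (adjusted p = 0.0313). The effector Mical2 was at -0.38 in that fit (adjusted p = 0.0422 from edgeR). There, 2 effectors were called lower and 1 higher, beside 3.74% and 3.98% of all genes.

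Some members share sequence positions with other genes. Exons of Plxna1, Plxna4, Plxnb1 and Sema4c overlap exons on the opposite strand, over 970 bases with Gm26811, 110 bases with Plxna4os3, 257 bases with Gm7628 and 334 bases with D430040D24Rik. Exons of Nrp1 and Sema4a hold the microRNA genes Mir1903 and Mir7011 on the same strand, over 80 and 73 bases. Since the sources used here do not say whether reads were counted by strand, reads in these overlaps cannot be told apart. Exons of Sema3d, Sema3e, Sema3a, Sema3b, Sema6d, Plxnb2 and Nrp2 overlapped no exon of another gene listed.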

How the data were processed

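RNA-seq of whole P1 cortex (TRIZOL, Illumina TruSeq RNA v2) gave 8 libraries, 4 control and 4 dcKO_Nex-Cre. Raw, unnormalised counts by Ensembl identifier were deposited by the authors. The submitters' processing notes name mm10, while the aligner, the counting program and the strand setting are not given in the sources used here. The labels give no Cre line, and Nex-Cre comes from the study's text. Nothing says that the libraries came from separate litters, so p-values measure the spread between these samples.

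Symbols, positions and exon lengths came from GENCODE M21 on GRCm38 (48349 of 48709 identifiers matched). Counts were fitted in R 4.3.3 with edgeR 4.0.16 (filterByExpr, TMM, robust quasi-likelihood F test, two-sided), which kept 16287 genes, with Benjamini-Hochberg adjustment over all of them and a threshold of 0.05. The common biological coefficient of variation was 0.143. Libraries of a group differed by more than counting noise (chi-square per degree of freedom at least 3.77). CPM of single genes were also compared by the exact permutation test over 70 regroupings. Depth limits genes with few counts, such as Vegfd, Plxnb3 and Sema3g.

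The alternatives were DESeq2 size factors, the Wald test of DESeq2 1.42.0, limma-voom (limma 3.58.1), no filter, at least 10 counts in every library, the replicate number as a block, 1 surrogate variable (sva 3.50.0), the libraries of lane tag 2, each library left out, and, chosen after seeing the data, both libraries with the highest mitochondrial share left out. The file names supplied the lane tags. The methods were tested on simulated data.

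The members and gene lists were chosen with earlier results of these data known. Members with an unadjusted p under 0.05 or without overlap were given with all libraries. Plxnb2, Plxnc1, Nrp1, Nrp2 and Vegfa were given in the same way after their values were seen. The values of Flt1, Adam17, Cdk5r1 and Mical2 without dcKO_Nex-Cre replicate 4, and those of Gm3510, were likewise added after they were seen. Python 3.11.15, pandas 2.3.3 and matplotlib 3.10.9 served for the summaries and plots.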

Additional observations from a re-analysis of the deposited data

Results flagged for a closer look

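In 4 of 86 groups of 4 libraries, 1 library stood apart from the rest by Dixon's criterion at 95%, and chance flags about 1 in 20 groups. Control replicate 2 was the high library for 3 members, with Plxna3 at 252 CPM (209 to 213 in the other controls), Sema4g at 246 CPM (185 to 193) and Sema6c at 117 CPM (93.6 to 95.5). dcKO_Nex-Cre replicate 4 was the low library for Plxnb2, at 164 CPM (239 to 251 in the other dcKO_Nex-Cre libraries).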

How the results depend on the processing

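The number of members with an adjusted p under 0.05 that were higher in the dcKO_Nex-Cre cortex was 0 over all libraries, 2 with DESeq2's Wald test, 2 without a filter on low counts, 2 with 1 surrogate variable, 2 within lane tag 2, 4 with both libraries of high mitochondrial share left out, and 0 to 4 over the fits that omit 1 library. It was also 0 with limma-voom, DESeq2 size factors, at least 10 counts in every library and the replicate block. The number that were lower was 0 over all libraries and 0 when each library was left out. It was 1 with 1 surrogate variable (Sema6d, adjusted p = 0.050 from edgeR) and 1 with both high mitochondrial libraries left out (Sema3a). At the unadjusted threshold, 3 members were lower, 5 with 1 surrogate variable (beside 10.7% of all genes), 0 within lane tag 2 (11.8%) and 0 to 3 when each library was left out. At that threshold 2 members were higher, 7 within lane tag 2 (beside 11.7% of all genes), 8 with both high mitochondrial libraries left out (14.9%) and 2 to 9 when each library was left out. Members below all controls numbered 0 over all libraries (beside 4.01% of all genes) and 1 within lane tag 2 (18.3%). They numbered 4 without both libraries of high mitochondrial share (17.3%) and 0 to 3 over the single omissions (4.85% to 14.1%). Members above all controls numbered 1 (3.99%), 7 (17.7%), 7 (16.4%) and 1 to 6 (4.77% to 13.1%), in the same order. Fewer libraries make such separation more frequent for any gene. The median log2 fold change of the members lay between -0.03 and 0.08 over the single omissions and at 0.11 within lane tag 2.

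Of 527 values of single members under the alternatives, 509 kept their side of the adjusted threshold and 18 came to pass it. The sign changed in 52 values of 17 members, each at p above 0.05, and the cause was not tested. Same-numbered libraries correlated at 0.13, 0.02, 0.13 and -0.14. Differently numbered libraries were not set beside them, so these values cannot tell whether the replicate numbers pair the samples. The fit with the replicate block called 0 members in either direction, and Sema3d (0.72) and Sema3e (0.70) were higher and Sema3a (-0.24) and Sema3b (-0.47) lower at the unadjusted threshold. Over all genes the block called 21 higher and 33 lower, in place of 61 and 83. Sema3d and Sema3b rest on few counts, and with 4 libraries per group the intervals of 5 members reached beyond 1.5-fold.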
